A study of Mus musculus with 10 samples.

Results

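Toll-like receptors, the adaptor MyD88, the kinases Irak1 and Irak4 and the co-receptor Cd14 were examined in CD4+ splenocytes early in abdominal sepsis. The members were 10 listed genes: Tlr1, Tlr2, Tlr4, Tlr6, Tlr7, Tlr9, Myd88, Irak1, Irak4 and Cd14. Every probe set that the platform annotation assigns to exactly 1 of these symbols was taken, whatever its level. This gave 17 probe sets of 9 genes, out of 18193 genes with such a probe set on the array. Irak4 had none under its symbol, so no value is given for it. Of the 17 probe sets, 15 were bright enough to be tested and 2 of Tlr4 were not.

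Cells came from C57Bl/6 mice aged 8 to 12 weeks, 6 h after an operation under halothane, with no transgene or drug named in either group. In the 5 mice of the CLP group the cecum was tied off and pierced (cecal ligation and puncture), a model of polymicrobial peritonitis in which gut bacteria leak into the abdomen. The other 5 mice had sham surgery. The spleen cells were enriched to about 91% CD4+ by magnetic removal of other cells, so a minority of other leukocytes stayed in every sample, and every mouse had a separate Affymetrix array, hybridised after 2 rounds of amplification. Values are intensities scaled to a common array median. The number of arrays, n = 5 mice a group, limits the precision of every value.

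Toll-like receptors recognise conserved microbial molecules. Tlr2 pairs with Tlr1 or Tlr6 at the cell surface to bind bacterial lipopeptides, Tlr4 binds lipopolysaccharide with the help of Cd14, and Tlr7 and Tlr9 bind RNA and CpG DNA inside endosomes. All of these receptors signal through Myd88, which recruits Irak4 and Irak1 and, through Traf6, activates NF-kB. The receptors are best known from macrophages, dendritic cells and B cells, and some are also made by T cells.

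RefSeq promoters of mouse build GRCm38.p6, which span 250 bases before to 50 after each start site, were found for 7 of the 10 members, in 10 entries: Tlr1, Tlr2, Tlr6, Tlr9, Myd88, Irak1 and Irak4. Both strands were searched for the interferon-stimulated response element (GAAA, any 2 bases, GAAA), bound by interferon regulatory factors, and for an NF-kB motif (GGG, any 2 bases, TTTCC). The first was present in 3.44% of 32851 promoters and the second in 1.63%. The 130 bases just before the start site, 5′ to 3′ along the gene, are shown for Myd88 and Tlr6 because these 2 members held the interferon motif, set in capitals. They lie at chr9:119340019-119340148 and chr5:64959167-64959296, both on the minus strand.
Myd88: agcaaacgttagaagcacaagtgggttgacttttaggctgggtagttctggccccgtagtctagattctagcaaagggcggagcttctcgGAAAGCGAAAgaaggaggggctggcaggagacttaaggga
Tlr6: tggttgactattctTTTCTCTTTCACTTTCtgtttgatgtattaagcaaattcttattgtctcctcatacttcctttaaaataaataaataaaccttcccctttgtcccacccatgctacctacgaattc
The Myd88 match began 40 bases before the start site. Tlr6 held 2 overlapping matches on the opposite strand, which began 116 and 110 bases before this start site, and its other entry in the table held none. No member entry held the NF-kB motif. A match describes these letters only, and no match says only that they are not in this window.

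The members' promoters differed in CpG content. Irak1 had the most CpG pairs among the members' entries, 22 in 300 bases, and Tlr9 had 0, against a median of 7 and a 75th percentile of 20 over all promoters. The corresponding stretches are shown with CG in capitals, at chrX:74023919-74024048 on the minus strand and chr9:106222468-106222597 on the plus strand.
Irak1: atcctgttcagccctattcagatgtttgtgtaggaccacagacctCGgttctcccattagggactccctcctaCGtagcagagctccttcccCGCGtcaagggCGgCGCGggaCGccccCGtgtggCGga
Tlr9: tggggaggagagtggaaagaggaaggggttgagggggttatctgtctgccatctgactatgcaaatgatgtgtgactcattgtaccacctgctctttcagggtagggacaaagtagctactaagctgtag

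The question was how transcripts of this pathway differ between septic and sham-operated mice. No member probe set passed the threshold of an adjusted p of 0.05 (limma, Benjamini-Hochberg over 27022 probe sets), against 190 of all tested probe sets, or 0.703%. At an unadjusted p under 0.05 there was 1 of 15, against 10.9% of all tested probe sets, and it was that of Cd14, whose mean log2 value corresponded to a 1.65-fold higher level in CLP mice. For the receptors, Myd88 and Irak1, the means of the tested probe sets differed by -0.26 to 0.20 on the log2 scale. In none of the 17 did all 5 CLP arrays lie above, or all below, the sham arrays. Over all tested probe sets the shares were 0.862% above and 2.11% below.

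Distance from array background was read in 2 ways: against the floor of the log2 values, which is the 25th percentile of all scaled intensities (70.4), and against genes of other tissues such as liver, muscle, retina and pancreas. The latter had 53 probe sets of 33 genes, with a median mean intensity of 68.0 and a 95th percentile of 249.97. Of the 17 member probe sets, 7 lay above that percentile: those of Tlr1, Myd88 and Cd14 and all 4 of Irak1. All 10 probe sets of Tlr2, Tlr4, Tlr6, Tlr7 and Tlr9 lay below it, so at each of them a level of the receptor's RNA was not told apart from background. Probe sets differ in affinity, so these distances do not rank the genes.

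**Figure D1:**
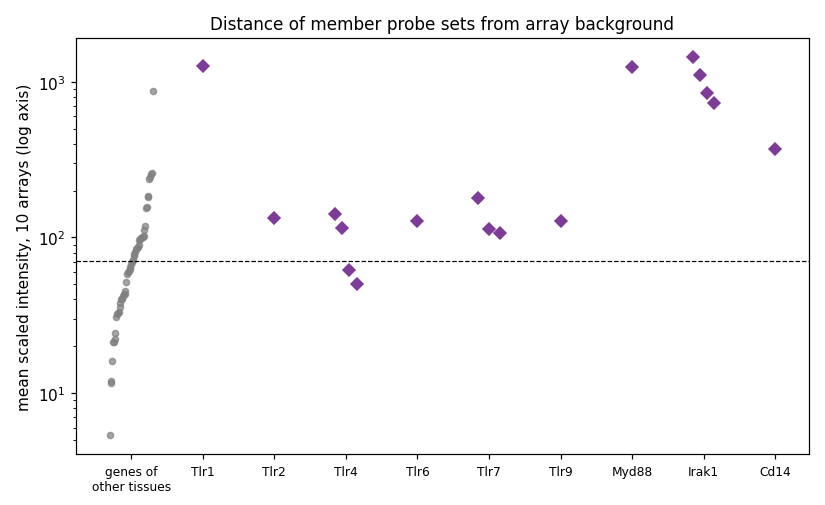
Mean scaled intensity over the 10 arrays (log axis) of each member probe set (diamonds) beside the 53 probe sets of genes of other tissues (grey points); the dashed line is the floor of 70.4. Tlr1, Myd88, Irak1 and Cd14 stand clear of most grey points, while the diamonds of Tlr2, Tlr4, Tlr6, Tlr7 and Tlr9 lie among them.

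Among the surface receptors for lipopeptides, Tlr1 was the one with a clear signal, 4.14 log2 units above the floor and at the 93.1st percentile of all probe sets. Its intensities were 1313, 875, 1081, 1543 and 1163 in CLP arrays 1 to 5 and 1298, 1106, 1397, 1080.1 and 1753 in sham arrays 1 to 5. The groups overlapped over most of their range, with the lowest array in the CLP group and the highest in the sham group. The log2 fold change was -0.15 ± 0.17 (SE, adjusted p = 0.880 by limma), and its 95% interval of -0.53 to 0.22 holds neither a doubling nor a halving.

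Tlr2, the shared partner of Tlr1 and Tlr6, lay 0.92 log2 units above the floor, and 9 of the 53 probe sets of other tissues were brighter. CLP arrays read 149, 154, 149, 126 and 134 and sham arrays 129, 126, 105, 141 and 121. In CLP mice 3 of 5 arrays were above every sham array, and the other 2 lay within the sham range. The log2 fold change was 0.20 ± 0.10 (SE, adjusted p = 0.512 by limma), with an exact two-sided permutation p of 0.0556, where the smallest that 252 arrangements allow is 0.00794. In bulk samples such as these, a change in the number of cells of a type and a change in RNA per cell cannot be told apart.

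Tlr6, the other partner of Tlr2, was 0.85 log2 units above the floor. It read 146, 103, 126, 129 and 106 in CLP arrays and 136, 119, 139, 137 and 138 in sham arrays. CLP arrays were more scattered, and 1 lay above the sham range while 2 lay below it. The log2 fold change was -0.14 ± 0.11 (SE, adjusted p = 0.774 by limma).

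The lipopolysaccharide receptor Tlr4 had 4 probe sets, and none was well clear of background. The brightest, 1442827_at, gave 99.7, 100.2, 227, 132 and 112 in CLP mice and 213, 146, 125, 172 and 84.9 in sham mice. This probe set varied most within groups, and its log2 fold change of -0.15 had a 95% interval of -0.75 to 0.44. The second, 1418163_at, gave 108, 95.9, 96.6, 109 and 106 against 151, 158, 111, 101 and 107. Here 2 sham arrays stood above all others, and the log2 fold change was -0.26 ± 0.14 (SE, adjusted p = 0.543 by limma). The remaining probe sets, 1418162_at and 1430695_at, averaged 59.6 and 51.6 in CLP mice and 64.1 and 49.2 in sham mice. They were at or under the floor in 9 and all 10 arrays, so no fold is given. Over the 10 arrays the log2 values of the tested pair correlated with r = 0.30, a description of 2 dim probe sets of 1 gene.

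Cd14, which hands lipopolysaccharide to the Tlr4 complex and is a classic monocyte surface protein, had the largest difference of the members. CLP arrays read 581, 477, 579, 265 and 415, with a mean of 463 ± 132 (SD, n = 5). Sham arrays read 360.2, 238, 251, 237 and 282, with a mean of 274 ± 51.7 (SD, n = 5). In CLP mice 4 of 5 arrays exceeded every sham array, and the exception, CLP array 4, fell between the sham values. The log2 fold change was 0.72 ± 0.21 (SE), its 95% interval 0.26 to 1.18, and its adjusted p 0.156 by limma, so it was not called; the exact permutation p was 0.0238. Without CLP replicate 4 the value was 0.91 with an adjusted p of 0.0338, and with array weights 0.89 with an adjusted p of 0.0358, both past the threshold.

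The arrays fell into a high and a low class by the signal of an 18S ribosomal RNA control probe set, above or below an intensity of 1000, with 3 CLP and 3 sham arrays (numbers 1, 3 and 5) in the high class. This split does not follow the groups and was found after the data had been seen. Cd14 was higher in CLP mice within each class, at 525 against 298 in the high class and 371 against 238 in the low class, with no overlap in either. The log2 differences were 0.82 and 0.58, and with the class as a block the adjusted p was 0.0506. Tlr2 was above sham without overlap in the high class, by 0.29, and differed by 0.07 with overlap in the low class. Tlr1 differed by -0.32 in the high class and 0.09 in the low class. In the low class, with 2 arrays a group, the groups also did not overlap for Tlr4 1442827_at (-0.46) and Irak1 1460649_at (0.16), which differed by 0.05 and -0.08 with overlap in the high class. So few arrays often separate by chance, and the share of all probe sets without overlap within a class is not given here. The lack of overlap within a class is therefore only a description, for Cd14 too.

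Markers of the cells that carry Cd14 are given beside it. Of 17 monocyte and macrophage markers on the array, 6 were too dim to test, and of the 11 tested 8 were higher and 3 lower in CLP mice, none past the threshold, with a median log2 fold change of 0.02. Their summed intensity was 3907 to 5265 in CLP and 3575 to 4959 in sham arrays. Lyz2 (lysozyme) differed by -0.10, Csf1r (the receptor of the macrophage growth factor) by 0.01 and Adgre1 (F4/80) by 0.02. Csf1r alone averaged 2682 in CLP and 2667 in sham mice, most of the mean sums of 4479 and 4428, so the sum largely reads 1 probe set. Of the 2 other tested probe sets of Csf1r, 1 went the same way. Of the 11 tested, 4 lay above the 95th percentile of the genes of other tissues, Csf1r and Adgre1 among them and Lyz2 not, so most of this list was read close to background. With the mean of these markers as a covariate Cd14 differed by 0.74, adjusted p 0.157.

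Neutrophil markers, 13 tested with 8 higher and 5 lower and none called, summed to 4581 to 17282 in CLP and 5871 to 14102 in sham arrays, and did not move together. S100a8, a calprotectin subunit, differed by -0.82 with an SE of 0.56, while the list ran from -1.31 (Mmp8, a collagenase) to 1.10 (Ngp, a granule protein) with a median of 0.13. Their mean log2 level was highest in CLP array 1 (9.39) and sham array 1 (9.09), the arrays with the highest Cd14 value of each group, against 8.09 to 8.51 in the other 8. The same arrays were highest in their group for B cell markers (9.08 and 8.89, against 8.28 to 8.61 in the other 8) and for erythroid markers (10.02 and 9.33). The monocyte and macrophage mean was also highest in them, by a smaller margin (7.79 and 7.76, against 7.59 to 7.78 in the other 8). Of the 5 erythroid markers tested 4 were higher and 1 lower, none called, with a median of 0.02, although Slc4a1, the red cell anion exchanger, differed by 1.42 with an SE of 0.57. Without CLP replicate 1 Cd14 differed by 0.63 and without sham replicate 1 by 0.83, in the same direction; the part of these cells in its values was not tested otherwise. B cell markers, 12 tested with 8 higher and 4 lower and none called, summed to 4780 to 8776 in CLP and 4613 to 7360 in sham arrays. Cd79a, a chain of the B cell receptor, differed by 0.37, and with the B cell mean as a covariate Cd14 differed by 0.61 with an adjusted p of 0.120. Of the dendritic cell markers 10 were tested, 6 higher and 4 lower and none called; Itgax (CD11c) differed by -0.00 and Siglech was too dim to test.

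The sorted cells' own markers were bright in both groups. Cd4 read 1694 ± 145 (SD, n = 5) in CLP and 1863 ± 373 in sham mice, and Cd3e, a chain of the T cell receptor complex, 2632 ± 173 against 2858 ± 235. Of 10 T cell markers 1 was higher and 9 lower in CLP mice, none past the threshold, and their summed intensity was 26759 to 28760 in CLP and 27290 to 32808 in sham arrays. The list ran from -0.69 for Cd5, a brake on the T cell receptor (adjusted p 0.102 by limma), to 0.12. CD8 T cell and NK markers, 6 tested with 3 higher and 3 lower and none called, summed to 2099 to 2677 in CLP and 2545 to 3448 in sham arrays, and Klrd1 (CD94) was the lowest at -0.54 with an adjusted p of 0.195. The part of these shifts in the members' values was not tested.

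**Figure D2:**
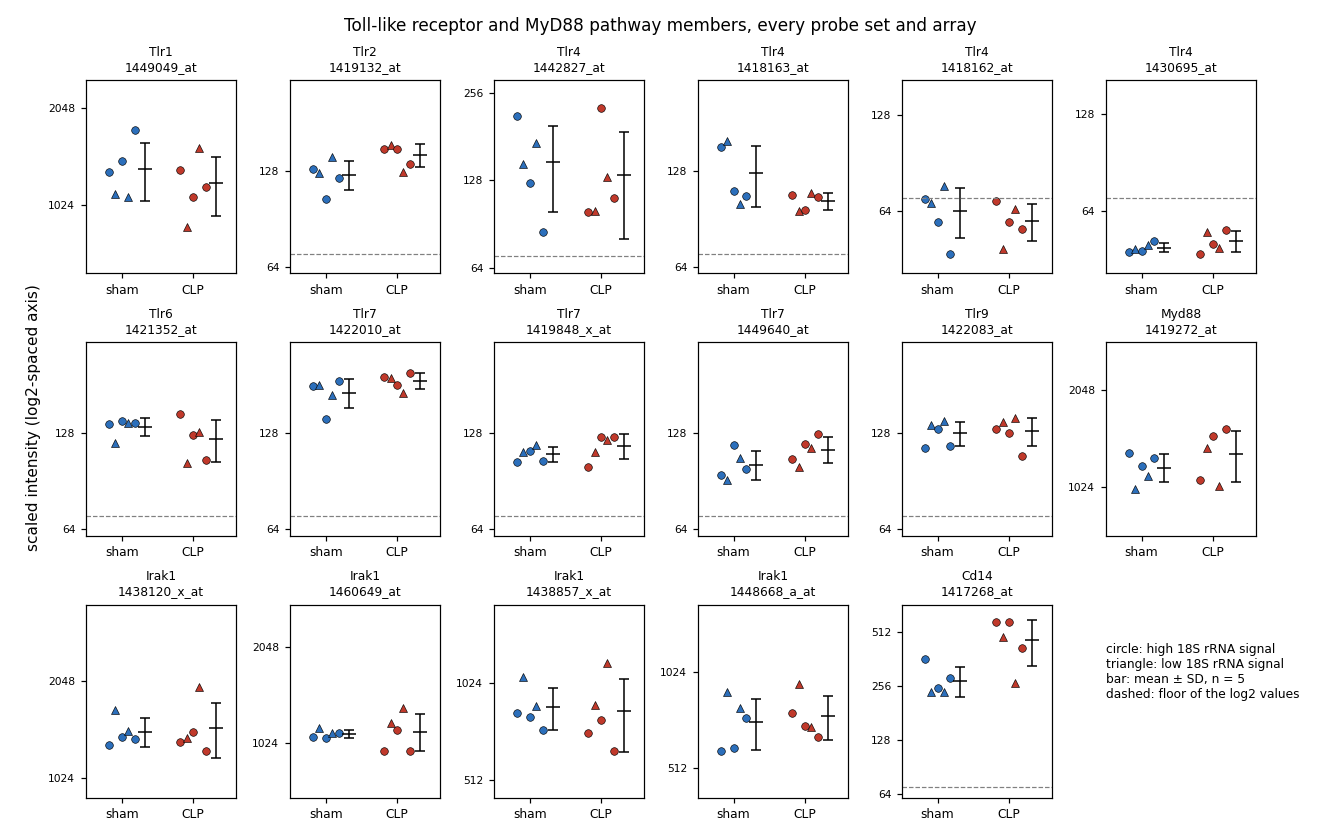
Scaled intensity (log2-spaced axis) of every member probe set in each array, sham in blue and CLP in red, circles for the high and triangles for the low 18S class; bars are mean ± SD, n = 5, and the dashed line is the floor. Groups overlap in all 17 panels, and in that of Cd14 4 of 5 CLP arrays lie above every sham array.

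The endosomal receptors showed small differences. Tlr7, the receptor for single-stranded RNA, had 3 probe sets. The brightest, 1422010_at, 1.34 log2 units above the floor, read 193, 191, 182, 171 and 197 in CLP mice and 179, 181, 142, 168 and 186 in sham mice. All 5 CLP arrays were above the sham mean on the log2 scale, 3 of them above every sham array, and the log2 fold change was 0.13 ± 0.09 (SE, adjusted p = 0.752 by limma). The other 2, 1419848_x_at and 1449640_at, were dimmer and differed by 0.08 and 0.16 with adjusted p of 0.872 and 0.677. The mean over all 3 was 0.12 higher in CLP mice, adjusted p 0.650. The brightest did not track the others over the 10 arrays (r = -0.10 and -0.18), while these 2 correlated with r = 0.70.

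Tlr9, the receptor for unmethylated CpG DNA, read 131, 138, 127, 142 and 109 in CLP mice and 115, 135, 131, 139 and 117 in sham mice. The groups covered nearly the same range, 0.86 log2 units above the floor on average. The log2 fold change was 0.02 ± 0.10 (SE, adjusted p = 0.981 by limma), with a 95% interval of -0.20 to 0.24.

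Myd88, the adaptor shared by these receptors and by those of the interleukin 1 family, was bright, 4.12 log2 units above the floor. CLP arrays read 1073, 1358, 1471, 1031 and 1552, a mean of 1297 ± 234 (SD, n = 5). Sham arrays read 1302, 1011, 1189.7, 1111 and 1262, a mean of 1175 ± 117 (SD, n = 5). In CLP mice 3 arrays were above every sham array and the others near the bottom of the sham range. The log2 fold change was 0.13 ± 0.13 (SE, adjusted p = 0.866 by limma) with a 95% interval of -0.16 to 0.42, and it was positive in both 18S classes (0.11 and 0.16).

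Irak1, the kinase that Irak4 activates at the receptor complex, had 4 bright probe sets, between 3.36 and 4.35 log2 units above the floor. The brightest, 1438120_x_at, read 1327, 1368, 1422, 1959 and 1243 in CLP mice and 1299, 1670.1, 1369.9, 1434 and 1351 in sham mice. CLP array 4 and sham array 2 were the highest, and the other 8 lay between 1243 and 1434. Its log2 fold change was 0.03 ± 0.13 (SE, adjusted p = 0.982 by limma), and those of 1460649_at, 1438857_x_at and 1448668_a_at were 0.01, -0.06 and 0.06. The first 3 of these probe sets followed each other over the 10 arrays (r between 0.82 and 0.92), while 1448668_a_at correlated with them at 0.24 to 0.31.

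Between the 18S classes all 4 Irak1 probe sets were lower in the high class, by 0.18 to 0.41 on the log2 scale. That of 0.41 (1438857_x_at) passed the threshold for class with an adjusted p of 0.0354 by limma. The share of all tested probe sets that passed for class is not given here, so this call is not read as particular to Irak1. The difference between classes was larger than that between CLP and sham mice for all 4. The ratio of the Gapdh 3′ to 5′ probe sets, a measure of how far labelled copies reach, was 9.4 to 13.4 in the low and 20.7 to 29.5 in the high class. The same ratio for Actb did not separate the classes, at 7.4 to 10.8 in the low and 6.2 to 11.7 in the high class. Whether the part of the transcript read by each probe set bears on the class differences of Irak1 was not tested.

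**Figure D3:**
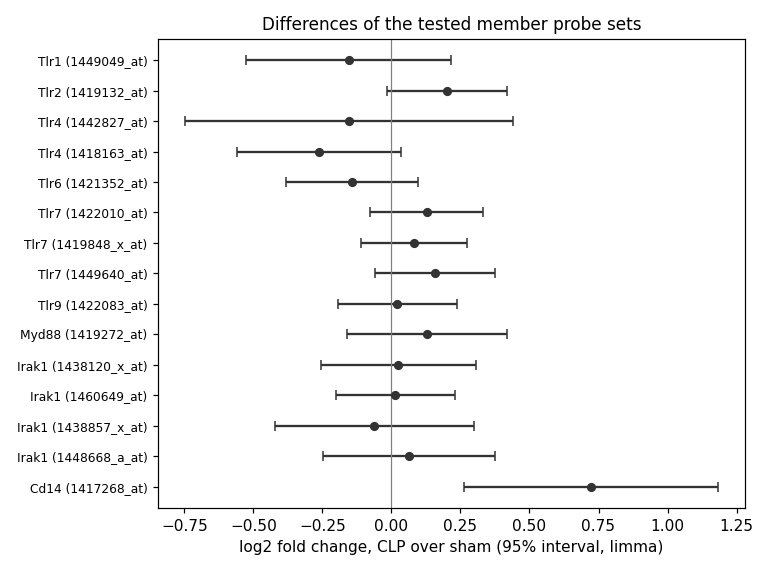
Log2 fold change, CLP over sham, of the 15 tested member probe sets with 95% intervals from limma. The intervals of 14 include 0, and that of Cd14 runs from 0.26 to 1.18.

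The genes whose levels were most like each member over the 10 arrays were ranked by Pearson r of the log2 values among 12216 named genes. These r are the highest of many and are given as descriptions of arrays that share 18S class and labelling. For Cd14 they were Dusp16, a phosphatase of MAP kinases (r = 0.96, Spearman's rho = 0.92), Xpnpep1, an aminopeptidase (r = 0.96, rho = 0.96), and Ifitm2, an interferon-induced membrane protein (r = 0.95, rho = 0.95). With the group means taken out, r was 0.93, 0.93 and 0.92, so arrays high in Cd14 were high in these genes within groups too. For Tlr2 they were the metallothioneins Mt2 and Mt1 (r = 0.89 and 0.88), which bind zinc, and Gsta4, a glutathione transferase (r = 0.88). For Myd88 they were Tns1, Aph1b and Stx5a (r of 0.93, 0.92 and 0.91), for Tlr1 Mir142, Fam126b and Brat1 (0.94, 0.93 and 0.93), and for Irak1 Rab17, Rabgap1l and Sfi1 (0.96, 0.95 and 0.92). Those of the dim receptors were Ccdc150, Palld and Il12rb2 for Tlr4, Rnf121, Tmprss6 and Poc1b for Tlr6, Zfp248, Gabra6 and Ece2 for Tlr7, and Efcab1, Htatsf1 and Serbp1 for Tlr9, with r from 0.88 to 0.97.

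The rest of the pathway was described with each gene at its brightest tested probe set. Over all 13073 genes 26, or 0.199%, were called higher and 72, or 0.551%, lower in CLP mice, and the median log2 fold change was 0.00. Of 11 tested receptors, co-receptors and chaperones outside the members, 8 were higher, 3 lower and none called, with a median of 0.04. Hsp90b1 (gp96), the chaperone that folds Toll-like receptors, had the lowest p, with a mean of 1795 ± 396 (SD, n = 5) in CLP and 2389 ± 270.4 in sham mice and a difference of -0.43 ± 0.15 on the log2 scale (SE, adjusted p = 0.252 by limma). Unc93b1, which carries endosomal receptors from the endoplasmic reticulum, differed by 0.10, the chaperone Cnpy3 by 0.08 and Tlr3, the receptor for double-stranded RNA, by 0.16. Of the 11 genes 4 lay above the 95th percentile of the genes of other tissues, and Unc93b1, Cnpy3 and Tlr3 were not among them. The 6 receptors of the interleukin 1 family, which use the same adaptor, had a median of 0.07 with 5 higher, 1 lower and none called; with array weights the median was -0.03 with 2 higher, and it was 0.01 without sham replicate 5 or CLP replicate 5. Il1r1 differed by 0.10, the decoy receptor Il1r2 by 0.15, Il18rap by 0.14 and Il1rl2 by -0.03.

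Adaptors and kinases of the pathway, which include the Myd88-independent adaptor Ticam1 (TRIF), were higher in 14 and lower in 6 of 20 genes, with a median of 0.09. None passed the threshold, and 5 had an unadjusted p under 0.05, against 11.8% of all genes. Over all 13073 tested genes, all 5 CLP arrays lay above all 5 sham arrays in 111 and below in 298. Traf6, the ubiquitin ligase next after Irak1, read 485, 819, 778, 540.2 and 863 in CLP mice and 347, 361, 459, 439 and 421 in sham mice, with no overlap. Its log2 fold change was 0.75 ± 0.17 (SE, adjusted p = 0.0743 by limma), and 2 of its 4 other tested probe sets went the same way. Map3k8 (Tpl2), the kinase that links NF-kB p105 to ERK, read 719.7, 1742, 1496, 1137 and 1522 against 694, 743, 711, 716 and 707. In sham mice it was nearly constant, 4 CLP arrays were well above, and CLP array 1 was within the sham range; the log2 fold change was 0.82 ± 0.20 (SE, adjusted p = 0.0973 by limma). Irf7, the interferon regulatory factor downstream of Tlr7 and Tlr9, differed by 0.69, adjusted p 0.215, and the kinase Ikbkb by -0.23, adjusted p 0.312. Traf6 passed in 5 of 25 alternative settings: with the 18S class as a block (0.75, adjusted p 0.0443), array weights or either marker covariate, and without CLP replicate 1 (0.87, adjusted p 0.0179). Map3k8 passed in 3: with either marker covariate and without CLP replicate 1 (1.03, adjusted p 0.00298). Irf7 passed in 1, without sham replicate 5 (0.90, adjusted p 0.0464).

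Of 17 inhibitors of the pathway 12 were higher and 5 lower, with a median of 0.03 and none called. Tnfaip3 (A20), which removes the ubiquitin chains made by Traf6, read 1345, 2592, 2093, 1649 and 2503 in CLP mice and 859, 774, 1219, 929 and 1256 in sham mice. All CLP arrays were above all sham arrays, as in 111 of all 13073 tested genes. The log2 fold change was 1.00 ± 0.20 (SE) with an adjusted p of 0.0518 by limma, just short of the threshold. It passed in 9 of 25 alternative settings, among them the 18S class as a block (adjusted p 0.0293), quantile normalization (0.0404) and array weights (0.0302), and without CLP replicate 1 (1.14, adjusted p 0.0129). Nfkbia, the inhibitor that holds NF-kB in the cytoplasm, was also without overlap but differed by 0.17, adjusted p 0.386. The deubiquitinase Cyld differed by -0.19, adjusted p 0.409, and the phosphatase Ptpn6 (SHP-1) by -0.35, adjusted p 0.244.

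Of 23 early targets that Toll-like receptor signals induce in macrophages, 21 were higher and 2 lower in CLP mice, with a median of 0.17, and 1 was called. Over all 13073 tested genes 6698 were higher and 6375 lower. Of these, 26 (0.199%) were called higher and 111 lay above sham without overlap. Il10 and Cxcl2, both among the 21, passed the filter on dim probe sets through their CLP values, so the filter bears on this count. Without CLP replicate 1 the list had 16 higher and a median of 0.09. Of the 23, 10 lay above the 95th percentile of the genes of other tissues, and 5 more on the array were too dim to test. Of the 11 tested genes of other tissues themselves, 8 were higher and 3 lower, with a median of 0.05. The called gene, Il10, an anti-inflammatory cytokine, rose: CLP arrays read 142, 369, 249.7, 229 and 176 and sham arrays 85.1, 91.5, 98.7, 116 and 86.2. The groups did not overlap, and the log2 fold change was 1.22 ± 0.22 (SE, adjusted p = 0.0349 by limma). The sham mean of 95.4 was under the intensity of 104.5 at which dim probe sets were left out, so Il10 was tested through its CLP values, and both means lay below the 95th percentile of the genes of other tissues. Without the filter the call was lost (adjusted p 0.0626), as it was within the high (1.04, adjusted p 0.0832) and the low 18S class (1.499, adjusted p 0.441). It was also lost without CLP replicates 2 (1.04, adjusted p 0.0579), 3 (1.18, 0.110) or 5 (1.305, 0.0921) and without any 1 of the 5 sham arrays (1.18 to 1.29, adjusted p 0.0748 to 0.111). Nfkbiz, a nuclear NF-kB cofactor, read 1689.9, 2495, 1958, 2661 and 1908 in CLP and 1496, 1582, 1661, 1641 and 1524 in sham mice, without overlap, and differed by 0.42, adjusted p 0.171. Bcl3, another NF-kB cofactor, differed by 0.84, adjusted p 0.160. It passed in 3 of 25 alternative settings: with array weights, with the monocyte marker covariate (adjusted p 0.0200 by limma) and without sham replicate 5 (1.07, adjusted p 0.0454).

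Cxcl2, a neutrophil chemokine, read 372, 70.0, 284, 73.3 and 196 in CLP mice and 107, 27.7, 28.5, 25.04 and 24.5 in sham mice. Of the sham arrays 4 were under the floor, and the high CLP arrays were those of the high 18S class. With those and CLP array 2 set to the floor, the log2 difference was 1.07 (adjusted p 0.361 by limma), a value that the floor holds down and that is no measured fold. The sham mean of 42.5 was under the intensity of 104.5 at which dim probe sets were left out. Cxcl2, like Il10, was thus tested through its CLP values, and its p is not read as support for a difference. The cytokine genes Tnf and Il6, named although their p was not among the lowest, were dim in both groups: Tnf averaged 109 in CLP and 117 in sham mice, and Il6 averaged 19.1 and 17.3, under the floor.

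**Figure D4:**
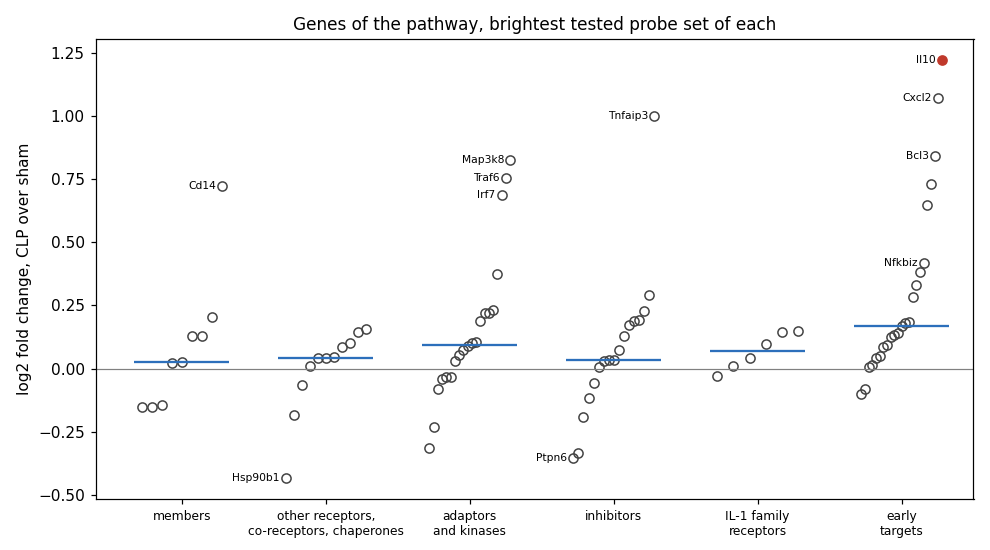
Log2 fold change, CLP over sham, of the brightest tested probe set of each gene by list; horizontal bars are list medians and the filled point is Il10, the gene past the threshold. The list medians lie between 0.03 and 0.17.

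**Figure D5:**
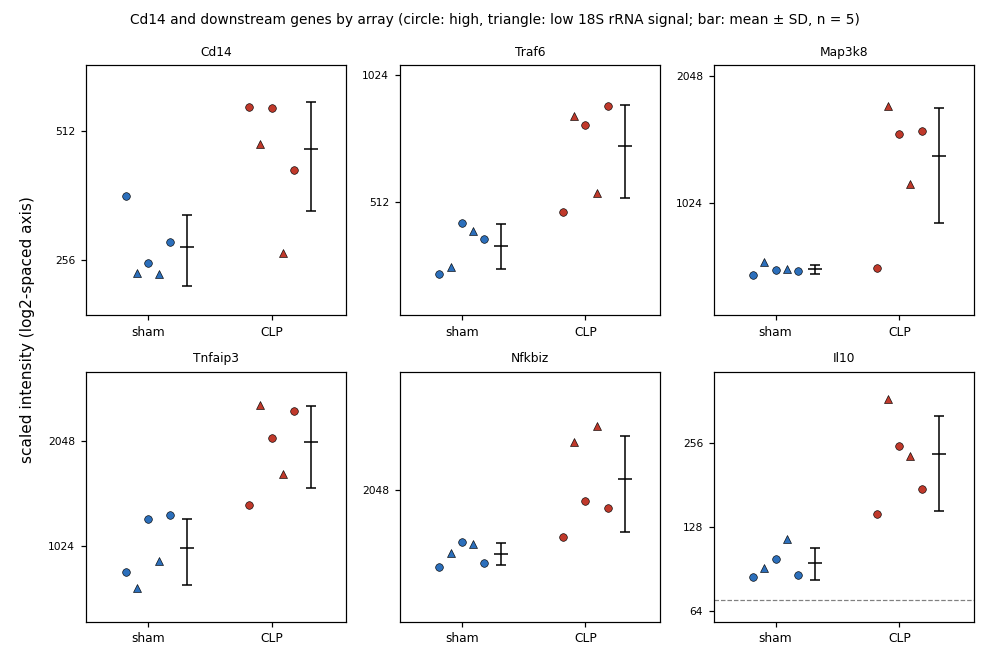
Scaled intensity (log2-spaced axis) by array of Cd14 and of Traf6, Map3k8, Tnfaip3, Nfkbiz and Il10, with mean ± SD, n = 5; circles are the high and triangles the low 18S class. Groups do not overlap for Traf6, Tnfaip3, Nfkbiz and Il10, with CLP above sham, as for 111 of all 13073 tested genes. CLP array 1 is the lowest CLP array of Traf6, Map3k8, Tnfaip3, Nfkbiz and Il10 but the highest of Cd14.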

How the data were processed

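RNA of 5 CLP and 5 sham mice was read on 1 array each. The authors deposited a linear intensity for every probe set on every array. How it was computed (software, background correction, scaling) was not given in the sources used here. Median deposited intensities lay between 127.6 and 142.4. The source labels name an individual mouse for each array.

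Of 45101 probe sets 34945 had 1 gene symbol in GEO's platform annotation, which can be old, 932 had several and 9160 had none. Arrays were brought to the same median, values under the 25th percentile (70.4) were set to it, and log2 was taken. Dim probe sets, with a mean log2 under the 40th percentile, and 64 controls were left out. The remaining 27022 were fitted with limma 3.58.1 in R 4.3.3 and adjusted by Benjamini-Hochberg, with a threshold of 0.05. Exact permutation tests were two-sided. The fit was tested on simulated data. Figures were drawn with matplotlib 3.10.9.

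Members, lists, markers and the 18S split were chosen with earlier results of these data known. All member probe sets are named; of each other list, genes past the threshold and up to 4 with the lowest p; defining markers; and for each member the 3 genes most like it, leaving out clone-like and predicted names. Tnf, Il6, Ticam1, Mmp8, Ngp, Slc4a1, Cd5 and Klrd1 were named outside this rule, after their values were seen. Alternatives were other scaling, floors, filters and variance models, array weights, the 18S class, marker covariates, the mean of a gene's probe sets, a replicate block and leaving out each array. Those for lists and named pathway genes were added after the data were seen. The titles number all sham arrays as replicate 1, so their suffix was used as the number.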

Additional observations from a re-analysis of the deposited data

Results flagged for a closer look

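In Tlr6 the sham array 2 stood apart from the rest of its group. It read 119 where the other 4 sham arrays lay between 135.8 and 139.2. On the log2 scale its gap to the nearest was 0.841 of the whole range, above Dixon's 95% critical value of 0.71 for 5 values. There were 34 such checks, 2 groups for each of 17 probe sets, and chance flags about 1 in 20 groups. Without sham replicate 2 the log2 fold change of Tlr6 was -0.18.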

How the results depend on the processing

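With 5 arrays a group, the count over all probe sets moved far and the members' count little. The 190 calls became 92 without the filter on dim probe sets, 509 with array weights, 718 with the 18S class as a block, 0 within the high and 0 within the low class (3 and 2 arrays a group), 355 with the monocyte and 335 with the B cell marker mean as a covariate, and 4 (without sham replicate 3) to 506 (without CLP replicate 1) when 1 array was left out. Member calls were 0 to 1 when 1 array was left out and 1 with array weights, each time Cd14, and 0 in the others. Cd14 was higher in CLP mice in all 25 settings, by 0.58 to 0.91 on the log2 scale, with adjusted p from 0.0338 to 0.767.

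The sign turned only for small differences, none of which passed. Within the high class it turned for Tlr4 1442827_at (0.052) and Irak1 1438120_x_at (-0.012) and 1460649_at (-0.081), and within the low class for Tlr1 (0.088) and Irak1 1438857_x_at (0.074) and 1448668_a_at (-0.057). With array weights it turned for Tlr9 (-0.014) and Irak1 1438120_x_at (-0.017) and 1460649_at (-0.010). Leaving out 1 array gave -0.015 to 0.083 for Tlr9 and, for Irak1, -0.085 to 0.084 (1438120_x_at), -0.050 to 0.061 (1460649_at), -0.20 to 0.032 (1438857_x_at) and -0.020 to 0.15 (1448668_a_at). Without turning, it moved Tlr1 between -0.25 and -0.048, Tlr4 1442827_at between -0.36 and -0.0065, Myd88 between 0.059 and 0.21 and Tlr7 1422010_at between 0.062 and 0.16. The cause was not tested.

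The replicate block gave 248 calls and no member call; correlations of same-numbered arrays were 0.18, 0.58, 0.38, 0.18 and 0.06, so 1 pair stayed under 0.1 and the numbers were not taken as pairs, although same-numbered arrays share their 18S class and 1 CLP array correlated best with its own number. Among named genes the block brought Tnfaip3 past the threshold (1.00, adjusted p 0.0405). Signal near background limits every receptor value except that of Tlr1.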
